A study of Mus musculus with 24 samples.

Results

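T cells and natural killer (NK) cells in mouse lung were followed through 10 marker genes: Cd3d, Cd3e, Cd4, Cd8a, Cd8b1, Gzma, Gzmb, Prf1, Nkg7 and Klrd1. They were taken by gene symbol among the array probes that are not controls, by a rule that uses no measured value; the markers themselves were chosen with earlier results of these data known. The array carried 27401 genes, of which 20409 were tested; the 10 markers were all on the array and all were tested. They are covered by 16 probes, and the probe with the highest mean stood for its gene.

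T cells recognise peptides through the T cell receptor, whose signal is passed into the cell by the CD3 chains that Cd3d and Cd3e encode. Cd4 marks helper and regulatory T cells, while Cd8a and Cd8b1 encode the chains of the coreceptor on cytotoxic T cells. Cytotoxic T cells and NK cells kill by releasing granules that hold the pore former perforin (Prf1) and the proteases granzyme A and granzyme B (Gzma, Gzmb). Nkg7 is a membrane protein of these granules, and Klrd1 (CD94) is a lectin-like receptor of NK cells and of some CD8 T cells. Both cell types reside in healthy lung, and lymphocytes are counted among the most radiation-sensitive cells of the body.

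The lungs were taken 24 days after irradiation, shock-frozen, and their RNA hybridised to 24 single-colour arrays, 2 biological replicates for each of 12 groups. Drug treatments are Ly, Imatinib, Su, and Ly joined with either of the others. Each was given to lungs with irradiation (groups Irradiation+Ly and so on) and to lungs without it (Ly and so on). The groups that received no drug are Irradiation and untreated. Imatinib inhibits the ABL, KIT and PDGF receptor kinases; Ly and Su are known here only by these label names. The title of the series asks how joint inhibition of TGF-beta and PDGF signalling acts on lung fibrosis after radiation. The labels used here give no strain, age, radiation dose or drug dose.

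Values are log2 signals relative to the 75th percentile of the same array, so they set samples against each other for 1 probe and do not set the level of one gene against another. The share of spots well above background ran from 62.0% to 78.5% over the arrays, and the number of arrays, not a read depth, limits the precision. The 24 arrays lay on 6 slides of 4, and each slide was either all irradiated or all unirradiated, so slide and irradiation cannot be told apart. Irradiation+Ly against Irradiation, Ly against untreated and each Su group against its Imatinib partner shared a slide. In all other drug comparisons the groups lay on different slides, so drug and slide cannot be told apart there. Array Irradiation 1 stood apart by its 75th percentile, 2478 against 703 to 1759 on the others, and Irradiation+Ly+Imatinib 1 by its 330 outlier spots against at most 80. Irradiation+Ly+Imatinib 2 and both Irradiation+Ly+Su arrays, all on 1 slide, had the lowest background, with negative-control medians of 2.65 to 2.95 against 4.38 to 12.4 on the other 21 arrays, and 75.9% to 78.5% of spots well above background against at most 73.3%. Values that move by over 1.5 times, change sign or change a call without Irradiation 1 are given without it too where they are described. Such fits leave 1 array in the Irradiation group, so a call lost in them can also come from fewer arrays. The 5 lung tissue markers (such as Sftpc, the surfactant protein C gene of alveolar type II cells) had mean log2 signals of 5.12 to 5.75 on irradiated and 5.44 to 6.07 on unirradiated arrays. The T and NK markers were well above background on all 24 arrays except Cd4, which was so on 18, among them 0 of the 2 Su arrays. In whole lung, fewer cells of a type and less RNA per cell cannot be told apart.

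Promoter windows, the first 250 bases of each promoter entry, were read from RefSeq on GRCm38.p6 for 7 of the 10 markers. The base that follows the window is called the start here. Cd4, Cd8b1 and Klrd1 had no entry. For Cd3d, Cd3e and Prf1 that start lies within the RefSeq bounds of the gene, so part of each of these windows lies inside the gene. Distances are counted from that start back to the first printed base of a match. The windows below belong to 3 of the markers that were lower after irradiation (Cd3d, Cd8a and Nkg7) and to the granzymes, whose signals moved with Nkg7 from array to array. Capitals mark 3 short motifs on either strand, none overlapping another: the Ets core AGGAAG, the Runx core TGTGGT and the E-box CAGCTG, bound by factor families known from lymphocytes. Each line runs 5′ to 3′ on the strand of its gene: Cd3d at chr9:44981536-44981785 (plus), Cd8a at chr6:71373177-71373426 (plus), Gzma at chr13:113100982-113101231 (minus), Gzmb at chr14:56262335-56262584 (minus) and Nkg7 at chr7:43436888-43437137 (plus).
Cd3d: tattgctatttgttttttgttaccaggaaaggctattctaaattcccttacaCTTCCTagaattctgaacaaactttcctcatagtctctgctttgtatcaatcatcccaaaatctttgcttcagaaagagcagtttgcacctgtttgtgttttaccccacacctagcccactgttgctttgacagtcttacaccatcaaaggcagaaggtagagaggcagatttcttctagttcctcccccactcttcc
Cd8a: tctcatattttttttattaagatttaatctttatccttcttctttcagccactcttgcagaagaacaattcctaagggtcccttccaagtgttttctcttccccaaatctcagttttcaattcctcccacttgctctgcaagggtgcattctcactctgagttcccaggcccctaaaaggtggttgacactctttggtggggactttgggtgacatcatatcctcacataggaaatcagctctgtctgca
Gzma: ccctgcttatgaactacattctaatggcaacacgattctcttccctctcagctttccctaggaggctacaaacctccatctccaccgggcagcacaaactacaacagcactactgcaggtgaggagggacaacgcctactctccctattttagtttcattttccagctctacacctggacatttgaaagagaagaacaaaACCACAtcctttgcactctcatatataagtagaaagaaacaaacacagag
Gzmb: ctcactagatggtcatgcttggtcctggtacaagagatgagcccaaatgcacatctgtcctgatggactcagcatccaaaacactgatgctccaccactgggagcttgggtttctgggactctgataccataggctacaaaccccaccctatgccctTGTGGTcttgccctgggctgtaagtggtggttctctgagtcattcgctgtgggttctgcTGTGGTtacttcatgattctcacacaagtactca
Nkg7: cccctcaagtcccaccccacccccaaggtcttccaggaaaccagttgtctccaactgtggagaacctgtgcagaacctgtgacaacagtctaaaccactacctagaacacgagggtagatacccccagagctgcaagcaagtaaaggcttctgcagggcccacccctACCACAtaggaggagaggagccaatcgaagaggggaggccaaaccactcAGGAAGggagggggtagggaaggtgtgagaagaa
The Runx core stood in the windows of Gzma (50 bases before the start), Gzmb (93 and 34), Nkg7 (83) and Prf1 (130), the 4 granule genes with an entry, and not in those of Cd3d, Cd3e or Cd8a. Of all 32851 promoter windows of this length, 14.0% hold it. The Ets core stood in the windows of Cd3d (198 bases before the start), Cd3e, Prf1 and Nkg7 (34), against 29.5% of all windows. The E-box stood only in that of Prf1 among the 7, against 13.0% of all. A match is a match of letters and shows no binding.

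Irradiated lungs were set against unirradiated lungs by the mean of the 6 differences at equal drug, 12 arrays against 12. Both chains of the CD8 coreceptor, the CD3 chain Cd3d and the granule protein Nkg7 fell. Of the 10 markers 4 were lower and 0 higher by limma at an adjusted p under 0.05, where 15.7% of all tested genes were lower and 16.9% higher. The median difference of the 10 markers was -0.42, against 0.01 for all genes tested.

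Cd8b1, the beta chain of the coreceptor, had log2 signals of 0.48, 1.03 and 1.98 (lowest, median, highest) in irradiated lungs and of 1.15, 1.66 and 2.65 in unirradiated lungs. The ranges overlapped, and 11 of the 12 irradiated arrays lay below the unirradiated median. The mean difference was -0.71 ± 0.17 (SE), a 1.64-fold lower level (adjusted p = 0.00503 by limma). Cd8a, the alpha chain, had log2 signals of -2.19, -1.62 and -0.50 in irradiated lungs and of -1.50, -1.08 and 0.10 in unirradiated lungs. Again 11 of 12 irradiated arrays lay below the unirradiated median, and the difference was -0.59 ± 0.15 (adjusted p = 0.00961 by limma). Both coreceptor chains were lower in 6 of 6 drug arms, which held for 11.1% of all tested genes.

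Nkg7 had log2 signals of -0.05, 0.72 and 1.34 in irradiated lungs and of 0.68, 1.03 and 1.88 in unirradiated lungs, with 11 of 12 irradiated arrays below the unirradiated median. Its difference was -0.52 ± 0.13 (adjusted p = 0.00901 by limma), negative in 6 of 6 arms. Cd3d had log2 signals of -0.34, 0.32 and 0.95 in irradiated lungs and of 0.22, 0.75 and 1.41 in unirradiated lungs. Here 9 of 12 irradiated arrays lay below the unirradiated median. Its difference was -0.44 ± 0.13 (adjusted p = 0.0205 by limma), negative in 5 of 6 arms and 0.25 in the arm without drug. That arm stood at -0.03 without array Irradiation 1.

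The other 6 markers did not pass. Gzma differed by -0.43 ± 0.20 (adjusted p = 0.108 by limma) and was lower in 6 of 6 arms; Klrd1 differed by -0.41 ± 0.17 (adjusted p = 0.0709) and was lower in 5. Gzmb differed by -0.19 ± 0.17 and Prf1 by -0.13 ± 0.16, each lower in 4 of 6 arms. Cd3e, the other CD3 chain, differed by -0.11 ± 0.19 with 3 arms on each side of 0. Cd4 was the only marker with a positive mean, 0.29 ± 0.14 (adjusted p = 0.117 by limma), positive in 4 of 6 arms. The 95% intervals of these differences reached from -0.86 to -0.01 for Gzma, from -0.77 to -0.06 for Klrd1 and from -0.00 to 0.58 for Cd4. Without array Irradiation 1, Klrd1 passed (-0.49, adjusted p = 0.0277 by limma) and was lower in 6 of 6 arms, Gzmb was lower in 5, and Cd3e and Prf1 differed by -0.04 and -0.03.

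**Figure D1:**
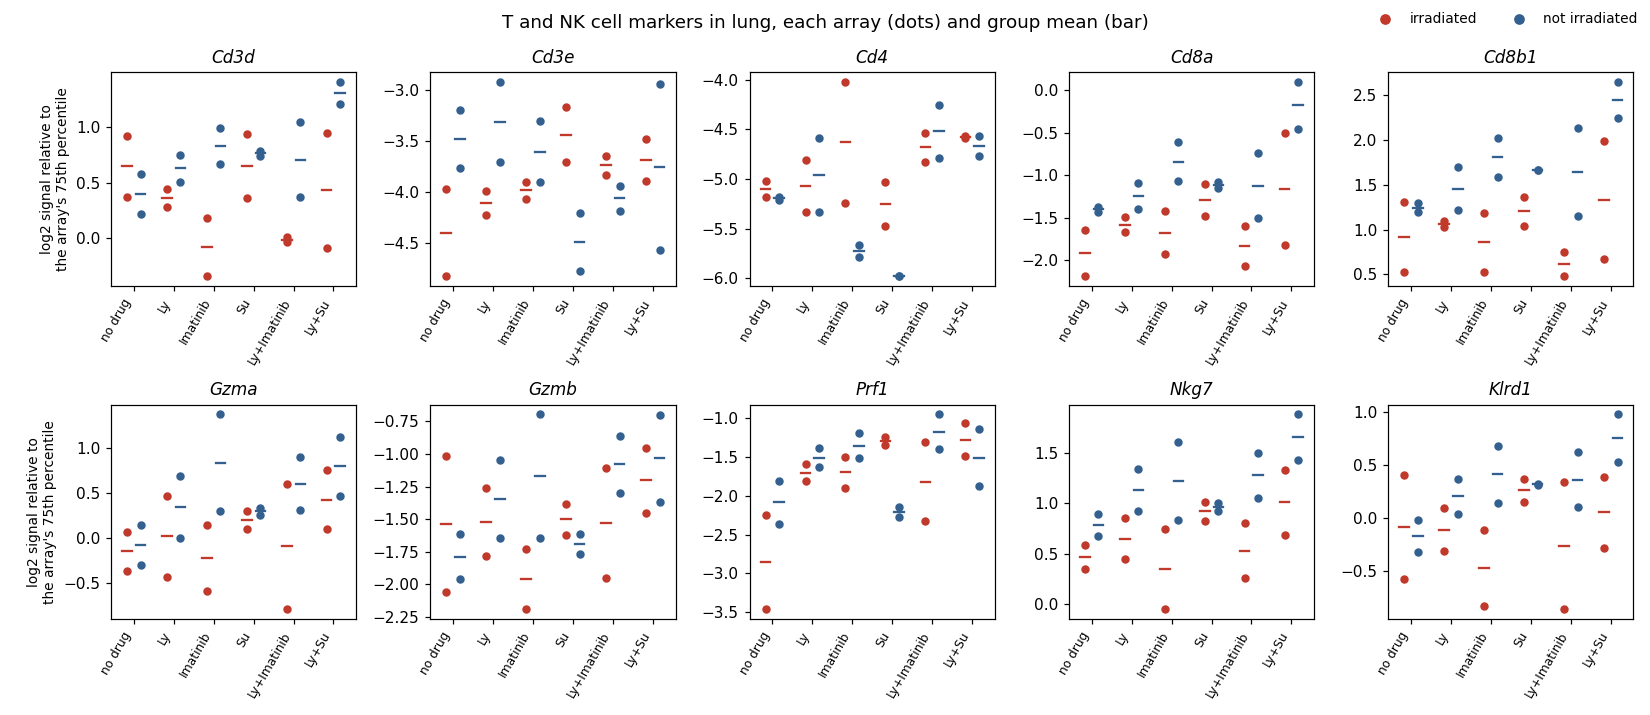
Log2 signal of the 10 markers relative to the 75th percentile of each array (vertical axes, 1 panel per gene), by drug arm (horizontal axes). Red dots are irradiated arrays, blue dots unirradiated arrays and short bars the means of 2 arrays; for Cd8a, Cd8b1 and Nkg7 the irradiated mean lies below the unirradiated mean in all 6 arms, while Cd4 and Cd3e change sides from arm to arm.

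The slides bear on these calls. Mean Cd8b1 was 0.99, 1.03 and 0.97 on the 3 slides with irradiated lungs, against 1.35, 1.73 and 2.05 on the 3 with unirradiated lungs. These slide means did not overlap, and neither did those of Cd8a, Nkg7 and Klrd1. No share of all genes without such overlap is given here, so this is no result about the markers. For Cd3d the slide means were 0.51, 0.29 and 0.21 against 0.52, 0.80 and 1.01, with the nearest slides nearly level. With slide as a random block, Cd8b1 (adjusted p = 0.0207 by limma), Cd8a (0.0362) and Nkg7 (0.0410) passed and Cd3d did not (0.109). With the 6 slide means as the samples, 0 of the 10 markers and 1 of all genes passed by limma. At an unadjusted p under 0.05 by limma stood 6 markers (0.00796 for Cd8b1). No share of all genes is given for that threshold, so this count is no result about the markers. When the arms Ly+Imatinib and Ly+Su were left out, 0 markers passed; these arms hold the 3 arrays with low background. The 4 called differences were then -0.53 for Cd8b1, -0.47 for Cd8a, -0.43 for Nkg7 and -0.26 for Cd3d (adjusted p = 0.0797 to 0.277 by limma). Leaving out any single array gave 4 to 6 markers lower.

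For 5 markers more than 1 probe was read. The second probe of Nkg7 followed the first (r = 0.96 over 24 arrays) and fell as well, by 0.44 (adjusted p = 0.0389 by limma with every probe tested). The second probe of Cd8a followed the first too (r = 0.96) and fell by 0.65 (adjusted p = 0.0172), and another, dimmer probe differed by -0.19 (adjusted p = 0.465). For Cd8b1 the probes disagreed. Its second probe, designed on accession BC025208 and above background on 24 arrays, had log2 signals of -0.75, -0.54 and -0.12 in irradiated lungs and of -1.19, -0.66 and -0.51 in unirradiated lungs. It rose by 0.28 ± 0.07 (adjusted p = 0.0121 by limma) and ran against the first probe over the arrays (r = -0.60). The direction given for Cd8b1 therefore belongs to its brighter probe, on accession NM_009858, which followed Cd8a (r = 0.97 over 24 arrays).

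Within single arms, 2 arrays against 2, limma called 0 of the 10 markers in each of the 6 arms. Of all tested genes it called 14.1% without drug, 0.049% with Ly, 2.74% with Imatinib, 10.1% with Su, 3.44% with Ly+Imatinib and 3.3% with Ly+Su. The markers at an unadjusted p under 0.05 numbered 0, 0, 7, 3, 3 and 3 in the same order. No share of all genes at this unadjusted threshold is given here, so these counts are no result about the markers. The F test of whether the irradiation difference differs between arms called 0 markers and 1.08% of genes; the lowest adjusted p was 0.302, for Cd3e.

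In the Ly+Su arm, Cd8b1 had log2 signals of 0.68 and 1.98 on the Irradiation+Ly+Su arrays, against 2.65 and 2.25 on the Ly+Su arrays. The arrays did not overlap, as for 29.4% of genes on the lower side in this arm, and the difference was -1.12 ± 0.41 (adjusted p = 0.163 by limma). Cd8a had -1.83 and -0.50 in Irradiation+Ly+Su lungs against 0.10 and -0.46 in Ly+Su lungs, a difference of -0.99 ± 0.38. The Ly+Su lungs held the highest group means of Cd8a, Cd8b1, Cd3d, Nkg7, Klrd1 and Gzmb among the 12 groups. No share of all genes with their highest mean in this group is given here. Without drug Cd8b1 had 1.31 and 0.53 in Irradiation lungs against 1.29 and 1.19 in untreated lungs, a difference of -0.32 ± 0.41. Without array Irradiation 1 it was -0.71, and that of Cd8a was -0.79, against -0.51 with it. The irradiation difference of the Ly+Su arm minus that of the arm without drug was -0.80 ± 0.57 for Cd8b1 (adjusted p = 0.368 by limma) and -0.47 ± 0.53 for Cd8a (adjusted p = 0.577), and -0.41 and -0.20 without Irradiation 1, so no difference between these arms was detected for either chain.

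In the Imatinib arm 9 of 10 markers were lower, and Cd4 was the exception. This count is not particular to the arm, since 10 of 10 were lower in the Ly arm and 9 of 10 in the Ly+Imatinib arm. The median difference of all genes tested was 0.03 in the Imatinib arm and 0.02 in the Ly arm. No share of all genes on the lower side of these arms is given here. Cd4 had log2 signals of -5.24 and -4.02 on the Irradiation+Imatinib arrays against -5.66 and -5.79 on the Imatinib arrays. The difference, 1.09 ± 0.33 (adjusted p = 0.0984 by limma), was carried by the higher of the irradiated arrays, and 1 of 2 arrays in each group was well above background. Gzma, granzyme A, had 0.15 and -0.59 in Irradiation+Imatinib lungs against 1.37 and 0.30 in Imatinib lungs, a difference of -1.05 ± 0.49. Cd3d had 0.19 and -0.34 against 1.00 and 0.67, a difference of -0.91 ± 0.32 (adjusted p = 0.149 by limma).

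Cd3e and Prf1 took opposite signs in the arm without drug and in the Su arm. Cd3e had log2 signals of -4.83 and -3.97 in Irradiation lungs against -3.20 and -3.77 in untreated lungs (difference -0.92 ± 0.45). In the Su arm it had -3.71 and -3.16 in Irradiation+Su lungs against -4.78 and -4.21 in Su lungs (difference 1.06 ± 0.45). In neither arm did the arrays overlap, which in the arm without drug held for 25.8% of genes on the lower side and in the Su arm for 33.2% on the higher side. Prf1, perforin, differed by -0.77 ± 0.39 without drug and by 0.92 ± 0.39 with Su. Without array Irradiation 1 the differences in the arm without drug were -0.49 for Cd3e and -0.16 for Prf1. The differences between these arms were 1.98 ± 0.64 for Cd3e and 1.69 ± 0.55 for Prf1 (1.55 and 1.08 without that array), and the F test over all arms did not pass for either (adjusted p = 0.302 and 0.315 by limma).

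**Figure D2:**
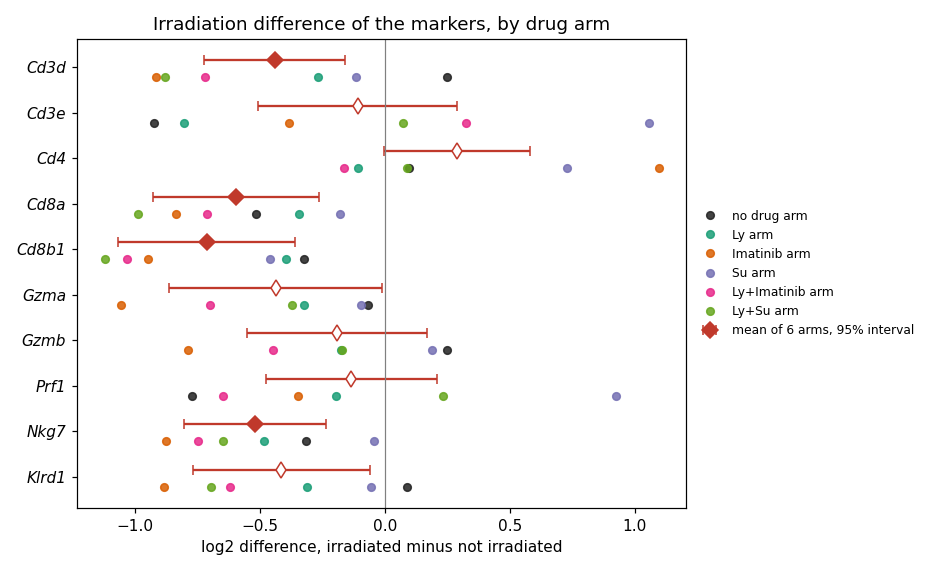
Log2 difference between irradiated and unirradiated lungs for each marker (horizontal axis), with dots for the 6 drug arms (2 arrays against 2) and red diamonds with 95% intervals for their mean. Filled diamonds passed limma at an adjusted p under 0.05; these are Cd3d, Cd8a, Cd8b1 and Nkg7, all below 0, with means of -0.44, -0.59, -0.71 and -0.52.

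Irradiated lungs given a drug were next compared with Irradiation lungs; the 5 comparisons share the same 2 Irradiation arrays. Perforin was the only marker to pass, in the groups given Su alone or with Ly. Irradiation, Irradiation+Su and Irradiation+Ly+Su lay on 3 different slides, so slide and drug cannot be told apart in these calls. Prf1 had log2 signals of -1.23 and -1.34 in Irradiation+Su lungs and of -1.49 and -1.06 in Irradiation+Ly+Su lungs, against -3.46 and -2.25 in Irradiation lungs. The arrays of either drug group lay above both Irradiation arrays, as did those of 26.3% of genes with Su and 34.5% with Ly+Su. Prf1 rose by 1.57 ± 0.39 with Su (adjusted p = 0.0120 by limma) and by 1.58 ± 0.39 with Ly+Su (adjusted p = 0.0111), so 1 of 10 markers was higher and 0 lower in each. Of all tested genes 10.9% were higher with Su and 16% with Ly+Su. The share of markers called was thus no higher than that of all genes in either comparison.

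The other drug groups had Prf1 signals of -1.59 and -1.81 (Irradiation+Ly), -1.50 and -1.89 (Irradiation+Imatinib) and -2.33 and -1.31 (Irradiation+Ly+Imatinib). Their differences from Irradiation were 1.15, 1.16 and 1.04 (adjusted p = 0.118, 0.0611 and 0.0731 by limma), with 0 markers called in each. The share of genes called was 0.921% with Ly, 13.2% with Imatinib and 19.1% with Ly+Imatinib. Array Irradiation 1, which stood apart, held the lowest Prf1 signal of the 24. Without it Prf1 differed by 0.96 with Su (adjusted p = 0.158 by limma) and by 0.97 with Ly+Su (adjusted p = 0.144); the other 3 differences were 0.55 with Ly, 0.55 with Imatinib and 0.43 with Ly+Imatinib. Without the other Irradiation array the differences were 2.17 with Su and 2.19 with Ly+Su. They were 1.76 with Ly, 1.76 with Imatinib and 1.64 with Ly+Imatinib. Untreated lungs, with no irradiation, had Prf1 signals of -2.36 and -1.81.

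With Imatinib, Cd3d had the opposite sign to Prf1. It had log2 signals of 0.19 and -0.34 in Irradiation+Imatinib lungs and of -0.03 and 0.01 in Irradiation+Ly+Imatinib lungs, against 0.92 and 0.38 in Irradiation lungs. All 4 arrays with Imatinib lay below both Irradiation arrays, as for 25.7% of genes with Imatinib and 23.7% with Ly+Imatinib; the differences were -0.73 ± 0.32 and -0.66 ± 0.32, and neither passed (adjusted p = 0.126 and 0.151 by limma). They were -0.45 and -0.39 without array Irradiation 1. Cd8a differed by 0.08 to 0.75 over the 5 drug groups and Cd8b1 by -0.31 to 0.41, and none passed. Without that array the ranges were 0.36 to 1.02 and 0.08 to 0.80, again with none passing.

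Without irradiation, no drug group differed from untreated lungs in any marker by limma, while the share of genes that did was 0.0049% for Ly, 0.348% for Imatinib, 2.68% for Su, 2.48% for Ly+Imatinib and 0.691% for Ly+Su. These 5 comparisons share the 2 untreated arrays. Ly+Su lungs had the most markers at an unadjusted p under 0.05 by limma, 5 of 10. No share of all genes is given for that threshold, so this count is no result about the markers. Cd8a had 0.10 and -0.46 in Ly+Su lungs against -1.43 and -1.37 in untreated lungs (difference 1.22 ± 0.38, adjusted p = 0.167 by limma). Cd8b1 had 2.65 and 2.25 against 1.29 and 1.19 (difference 1.21 ± 0.41), and neither gene's arrays overlapped, as for 24.8% of genes on the higher side. Cd4 was well above background on neither Su array and on 1 of 2 untreated arrays. Its measured means were -5.98 in Su and -5.20 in untreated lungs (adjusted p = 0.237 by limma), so no difference was detected.

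Su groups and Imatinib groups with the same background treatment shared a slide, which allowed 4 comparisons of Su against Imatinib. No marker passed in any of them, while 0.304%, 0.157%, 0.0784% and 0% of genes did for the Su, Ly+Su, Irradiation+Su and Irradiation+Ly+Su groups. Prf1 had -2.28 and -2.15 in Su lungs against -1.19 and -1.52 in Imatinib lungs, a difference of -0.86 ± 0.39 with a 95% interval of -1.70 to -0.03. In irradiated lungs it had -1.23 and -1.34 with Su against -1.50 and -1.89 with Imatinib, a difference of 0.41 ± 0.39 with an interval of -0.43 to 1.24. The adjusted p of these values were 0.581 and 0.919 by limma, and a missed threshold does not show that the drugs acted alike.

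**Figure D3:**
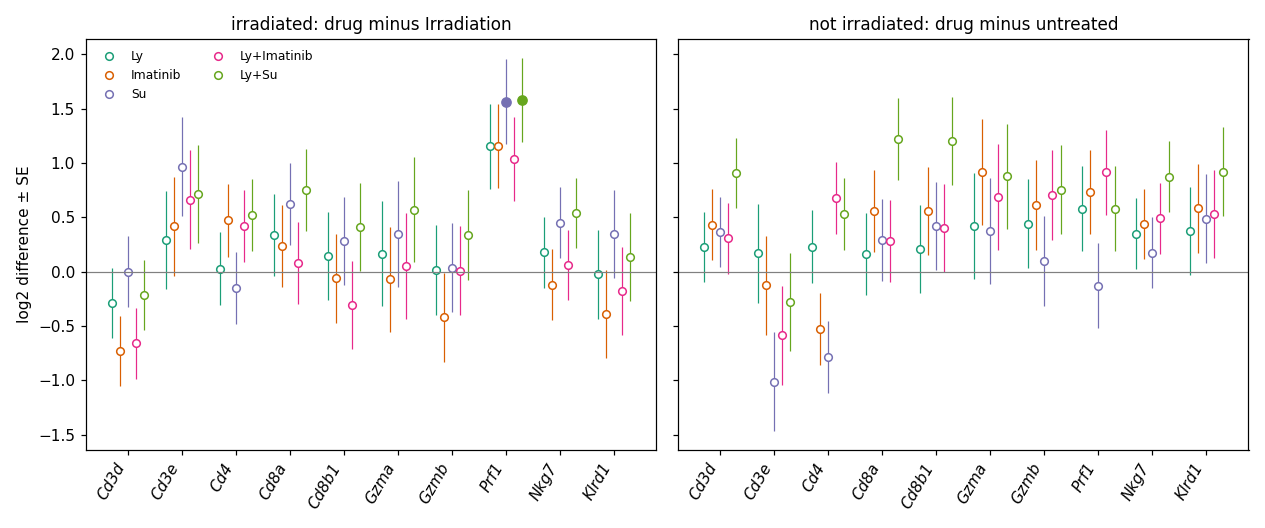
Log2 difference ± SE of the 10 markers (horizontal axes) between irradiated lungs with a drug and Irradiation lungs (left panel) and between unirradiated lungs with a drug and untreated lungs (right panel), with colours for the 5 drug treatments. Filled circles passed limma at an adjusted p under 0.05: Prf1 with Su (1.57) and with Ly+Su (1.58), both in the left panel.

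The markers fell into sets that moved together from array to array; these correlations share arrays, slides and scaling and are given as a description over 24 arrays. Cd8a and Cd8b1, neighbours on chromosome 6, correlated at r = 0.97, and Cd3d with Cd8b1 at 0.91. Gzma correlated with Nkg7 at 0.91, with Klrd1 at 0.90 and with Gzmb at 0.90. After the group means were removed, these values were 0.97, 0.94, 0.92, 0.90 and 0.93, so arrays of 1 group varied in the same way. Cd3d and Cd3e, whose proteins sit in the same receptor complex, correlated at only 0.10. Cd3e correlated best with Prf1 (0.53, and 0.38 without array Irradiation 1, which held the lowest signal of both genes), and Cd4 stayed between -0.23 and 0.27 with all other markers. Prf1 correlated with Gzmb at 0.38 over 24 arrays and at 0.72 without Irradiation 1, and with Gzma at 0.53 and 0.64.

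Outside the markers, the genes of most similar pattern to Gzma were Klrb1c (r = 0.92), Tbx21 (0.90), Klra23 (0.87), Fasl (0.87) and Ccl5 (0.86), over 24 arrays. Klrb1c encodes the NK cell antigen NK1.1, Tbx21 the transcription factor T-bet, Fasl the death ligand and Ccl5 a chemokine of activated T and NK cells. For Cd3e they were Wdr48 (0.81), Psme3ip1 (0.81), Gbp5 (0.79), Gbp7 (0.78) and Washc2 (0.77). Gbp5 and Gbp7 encode interferon-induced guanylate-binding proteins. The second Cd3e probe was above background on 3 arrays and correlated with the first at 0.24.

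**Figure D4:**
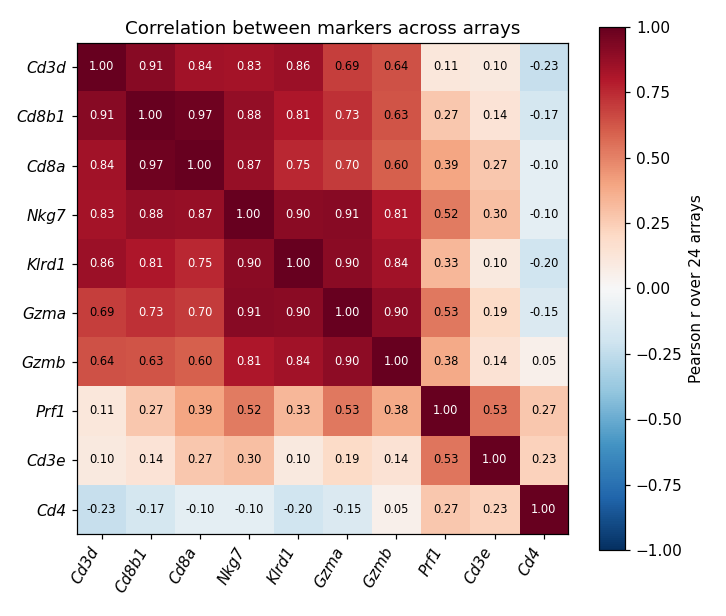
Pearson correlation between the 10 markers over 24 arrays (colour scale and printed values, both axes list genes). Cd3d, Cd8b1, Cd8a, Nkg7, Klrd1, Gzma and Gzmb form a block with r from 0.60 to 0.97, while Prf1, Cd3e and Cd4 lie outside it over these 24 arrays.

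Replicates of a group differed in the same direction for many markers at once. All 10 markers were higher on replicate 1 than on replicate 2 in Imatinib, Ly+Imatinib and Ly+Su lungs, with median gaps of 0.50, 0.52 and 0.51. So were 9 in Irradiation+Imatinib lungs, 8 in untreated and Irradiation+Ly lungs and 7 in Ly and Irradiation lungs. In Irradiation+Su and Irradiation+Ly+Imatinib lungs 7 were higher on replicate 2. In Irradiation+Ly+Su lungs 9 of 10 were higher on replicate 2, with a median difference of -0.65 between replicate 1 and replicate 2. In Su lungs the replicates were close, with a median gap of -0.02. No share of all genes on either side of these pairs is given here, so the counts are no result about the markers.

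Other genes of T and NK cells were read from lists chosen with earlier results of these data known. In the averaged irradiation comparison, 7 of 20 genes of T cell receptor signalling fell and 0 rose, with a list median of -0.24; of all tested genes 15.7% fell and 16.9% rose. Among them were Trat1 (-0.51 ± 0.18), an adaptor of the receptor complex, Lat (-0.47 ± 0.10), the linker for T cell activation, Prkcq (-0.47 ± 0.09), protein kinase C theta, and Lck (-0.46 ± 0.11), the kinase bound to the coreceptors. Of 25 further cytotoxic and NK genes 8 fell and 0 rose, with a median of -0.20. The NK receptors Klra8 (-0.63 ± 0.19), Klrg1 (-0.59 ± 0.16) and Klrb1c (-0.56 ± 0.18) and the transcription factor Tbx21 (-0.58 ± 0.15) fell furthest.

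Of 8 genes of naive and memory T cells 5 fell and 0 rose, with a median of -0.44. They include the transcription factor Lef1 (-0.83 ± 0.12), Dapl1 (-0.79 ± 0.26), the chromatin organiser Satb1 (-0.50 ± 0.10) and Ms4a4b (-0.44 ± 0.15). Of 11 helper and regulatory T cell genes tested 1 fell and 0 rose, with a median of -0.10, a share no higher than that of all genes. Against these stood genes of lymphocyte recruitment, of which 6 of 15 rose and 1 fell. Cxcl9 (1.35 ± 0.28) and Cxcl10 (1.33 ± 0.20), ligands of the T cell chemokine receptor CXCR3, were among those that rose. Il12b, a subunit of interleukin 12, was well above background on 8 irradiated arrays, 3 of them those with low background, and 0 unirradiated arrays. Its measured means were -5.15 in irradiated and -6.31 in unirradiated lungs (adjusted p = 0.000392 by limma). Bounds given below as at least a fold set the arrays of the dimmer group at the lowest signal marked as well above background. Their own signal is used where that is higher. Bounds are given only where both arrays of the brighter group were well above background.

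Other leukocytes gave the following values beside these. Ptprc (CD45), carried by all leukocytes, differed by -0.06 ± 0.16 (adjusted p = 0.810 by limma), and of 7 leukocyte genes Laptm5 (0.35) and Itgb2 (0.34) rose and Coro1a (-0.31) fell. Of 8 macrophage genes 6 rose and 0 fell (median 0.63), with list means per array of 0.15 to 1.78 in irradiated and -0.34 to 0.83 in unirradiated lungs. Of 5 mast cell genes tested 4 rose and 1 fell (median 1.67), with list means of -2.77 to 1.26 against -3.45 to -2.56. Of 8 B cell genes Pax5 rose (1.01), and list means were -2.02 to 0.23 against -1.89 to -0.04. Of 7 dendritic cell genes 3 rose and 1 fell, with list means of -4.18 to -2.98 against -4.07 to -3.04. Of 6 neutrophil genes Ltf rose (0.69) and S100a9 fell (-0.90), with list means of -0.14 to 1.64 against -0.20 to 3.69. Of 5 thymocyte genes 1 was tested and did not pass, and of 3 lymph node stroma genes tested 2 rose, Cxcl13 (1.17) and Madcam1. Madcam1 was well above background on only 4 irradiated arrays, among them the 3 with low background. Its measured means were -5.30 in irradiated and -6.07 in unirradiated lungs (adjusted p = 0.0182 by limma). The lung tissue list had 0 of 5 genes called. Without array Irradiation 1, 6 receptor signalling genes fell in the averaged comparison (Trat1, at -0.52, had an adjusted p of 0.0535 by limma), 8 cytotoxic and NK genes, 5 naive and memory genes and 2 helper and regulatory genes fell, and 6 recruitment genes rose; the leukocyte list then had 2 genes higher and 0 lower, the macrophage list 5 higher, the B cell list 2 higher and the lung tissue list 1 higher. The part of these cells in the marker differences was not tested.

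In the arm without drug, Gzmc, granzyme C, was well above background on both Irradiation arrays and neither untreated array. It was at least 1.28-fold higher in Irradiation lungs (measured means -4.92 and -7.27, adjusted p = 0.0142 by limma). Gzma and Gzmb in the same comparison differed by -0.07 ± 0.49 and 0.25 ± 0.41, and by -0.28 and -0.27 without array Irradiation 1. In all 5 irradiated drug groups Gzmc was not well above background on either array and was lower than in Irradiation lungs, by at least 1.31-fold (Ly), 1.55-fold (Imatinib), 1.43-fold (Su), 2.64-fold (Ly+Imatinib) and 3.51-fold (Ly+Su), with adjusted p from 0.00219 to 0.0490 by limma. The highest of these bounds belong to the groups that hold the low-background arrays, where the lowest signal marked as above background is lower. Without drug Lef1 (-1.50 ± 0.29), Tcf7 (-0.69 ± 0.17), a factor related to Lef1, and Prkcq (-0.81 ± 0.22) fell, while Cxcl9 (2.88 ± 0.69) and Cxcl10 (2.61 ± 0.50) rose. Leaving out array Irradiation 1 leaves 1 array in that group, so a lost call cannot be put down to that array rather than to fewer arrays. None of the genes named here then passed in the arm without drug. Lef1 differed by -1.01, Tcf7 by -0.51, Prkcq by -0.48, Cxcl9 by 2.58 and Cxcl10 by 1.87. Gzmc then remained lower in Irradiation+Ly+Su (adjusted p = 0.0152 by limma) and Irradiation+Ly+Imatinib lungs (0.0404), and did not pass with Su (0.0614), Ly (0.210) or Imatinib (0.213).

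Beside the rise of Prf1 in Irradiation+Su lungs, 5 of 20 receptor signalling genes rose against Irradiation lungs and 0 fell. They include Bcl11b (1.56 ± 0.44), a transcription factor of T cell identity, Cd27 (1.27 ± 0.32), a costimulatory receptor, and Prkcq (0.76 ± 0.22). Themis, a T cell signalling protein, was above background on 1 Irradiation+Su array and 0 Irradiation arrays. Its measured means were -5.21 and -7.68 (adjusted p = 0.0228 by limma). Ccr7 (1.30 ± 0.30), the homing receptor of naive T cells, Lef1 (1.10 ± 0.29), the NK receptor Klrc1 (1.25 ± 0.39), S1pr5 (2.11 ± 0.40) and Cx3cr1 (1.70 ± 0.32) rose too, the last a fractalkine receptor that monocytes also carry. In Irradiation+Ly+Su lungs Bcl11b (1.26), Cd27 (1.21), Lef1 (1.24), Ccr7 (1.21) and Eomes (1.01), a factor of NK and memory CD8 T cells, rose. Gzmc, as given above, was lower than in Irradiation lungs with Su and with Ly+Su. On all arrays, counts of T and NK cell lists are given here only for receptor signalling with Su. The named genes therefore do not show the direction of the other lists. In the same comparisons all 8 B cell genes rose and 7 of 8 macrophage genes fell in each, with list medians of 1.77 and -1.23 for Su and of 1.80 and -1.36 for Ly+Su, where 15% and 12% of all tested genes fell. Of 5 mast cell genes 4 fell and 1 rose with Su (median -3.85), and 3 fell and 1 rose with Ly+Su (median -3.19). Without array Irradiation 1, 0 of 20 receptor signalling genes passed in either comparison. With Su, Bcl11b then differed by 0.78 (adjusted p = 0.273 by limma), Cd27 by 0.70 (0.155) and Ccr7 by 1.05 (0.0990), while S1pr5 (1.82, adjusted p = 0.0406) and Cx3cr1 (1.25, 0.0485) passed; Prkcq, Themis, Lef1 and Klrc1 did not. With Ly+Su, Bcl11b, Cd27, Lef1, Ccr7 and Eomes did not pass (adjusted p = 0.116 to 0.509 by limma). The B cell list then had 7 of 8 genes higher, the macrophage list 1 of 8 lower and the mast cell list 0 of 5 called in each comparison. The part of these cells in the Prf1 difference was not tested.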

How the data were processed

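The deposited intensity values come from Agilent's Feature Extraction software, version 9.1.3.1 per the file headers, and are background-subtracted but not scaled between arrays. Per the labels' protocols, total RNA was labelled with Cy3. From these intensities log2 values were computed relative to each array's 75th percentile over unflagged spots that are not controls; spots of a probe were averaged, and 619 of 41174 probes were dropped as flagged. A deposited table for the whole series has these intensities rescaled and served as an alternative.

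A gene was tested when well above background on both arrays of at least 1 group. limma 3.58.1 in R 4.3.3 (package data.table at version 1.17.8) fitted 1 mean per group over all 24 arrays (12 residual degrees of freedom, 2.10 from the prior), two-sided, with Benjamini-Hochberg adjustment over 20409 genes and 0.05 as the threshold. Intensities hold no read depth.

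The 10 markers and all lists were chosen with earlier results of these data known. Named from each other list are up to 4 genes per comparison by size among those past the threshold, and Ptprc; the text gives a part of these, chosen after their values were seen. Some genes of the lists are counted but not reported here by name. The fit was tested on simulated data. Arrays were not paired by replicate number, since deviations by number correlated at a median of 0.036 over 66 pairs of groups (range -0.202 to 0.251, 20 of them over 0.1). For the second Irradiation+Su sample the replicate number of the title (2) was taken over that of the source name (1).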

Additional observations from a re-analysis of the deposited data

How the results depend on the processing

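Of 581 recomputed counts of markers called, 554 stayed within 1.5 times the reported count. Of 2729 recomputed single values 2686 kept direction and side of the threshold. Most of the reported counts were 0, so the high share that stayed says little about the counts above 0. Those were 4 lower in the averaged comparison and 1 higher each in Irradiation+Su and Irradiation+Ly+Su against Irradiation. All of them moved in some settings, given below. Normexp background correction moved the median of all genes in the averaged irradiation comparison to -0.14. With it 2 markers were lower there instead of 4 (Cd3d and Nkg7 lost, at -0.38 and -0.43), with 1596 of all genes called. Slide means gave 0, as did the 4 arms without Ly+Imatinib and Ly+Su, both chosen after seeing the data. Normexp further called 1 lower marker in the arm without drug, with 1498 of all genes called there. In the Ly+Imatinib arm it called 4 lower markers, with 9308 of all genes called. In Irradiation+Ly+Su against Irradiation it called 0 instead of 1 higher, with 286 of all genes called. In Ly+Su against Ly+Imatinib it called 2 lower and 1 higher, with 8709 of all genes called. With calls so widespread in the Ly+Imatinib arm and in Ly+Su against Ly+Imatinib, the counts there are not particular to the markers. Cd3e reversed under normexp to -1.77 in the Ly+Imatinib arm and to -1.56 in Ly+Su against Ly+Imatinib, where the medians of all genes moved to -0.40 and -0.34; the causes were not tested. Fits to only the groups compared called 1 higher marker in the Su arm (Prf1), with 6095 of all genes called. They called 0 in Irradiation+Su and in Irradiation+Ly+Su against Irradiation, where 0 of all genes were called. Such fits have fewer arrays to estimate the spread.

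Leaving out single arrays gave 4 to 6 markers lower and 0 to 1 higher (Cd4, 0.39, without Irradiation+Imatinib 1) in the averaged comparison. It gave 0 to 1 lower in the arm without drug (Prf1, -1.38, without Irradiation 2) and in the Ly+Su arm (Cd8a, -1.65, without Irradiation+Ly+Su 2), and 0 to 1 higher in the Imatinib arm (Cd4, 1.71, without Irradiation+Imatinib 1). Against Irradiation the number higher was 0 to 1 with Ly, Imatinib and Ly+Imatinib and 0 to 2 with Su and Ly+Su. For Su, leaving out Irradiation+Su 1 or 2 also lost Prf1 (1.51 and 1.62), and for Ly+Su leaving out Irradiation+Ly+Su 2 did (1.37). For the interaction it was 0 to 1. The lone array left in a group is assumed to vary like the others. The number of all genes called moved as well when an array was left out, so these counts are not particular to the markers.

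With replicate number as a block, 4 markers were lower in the averaged comparison and no call of a marker changed in any comparison. Slide as a random block was run for the averaged comparison alone, since other groups lie within slides. With 2 arrays a group, a missed threshold does not show equal levels; Cd4 lies near background.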
